A study of Homo sapiens with 12 samples.

Results

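Transcript levels of 10 genes that receive, transmit and restrain interferon signals were examined in the fibrosarcoma line HT1080, an established human cell line. The genes were taken by symbol: the receptor chains IFNGR1, IFNGR2 and IFNAR1, the kinases JAK1, JAK2 and TYK2, and the inhibitors SOCS1, SOCS3, PTPN2 and PIAS1. They are 10 of the 19293 genes in the deposited table of raw counts, and all 10 passed the filter on low counts that left 12160 genes for testing. The 12 libraries form 4 groups of 3, of which the first was left untreated, the second received 10 ng/ml of the cytokine IFNγ, the third received a radiation dose of 20 Gy (RT) and the fourth received both. All 4 groups are the same line, derived from a single tumour, and were collected at 24 h. Nothing in the labels states that libraries of a group were grown as separate cultures, so the p-values reflect the spread among these libraries alone, and this spread may be technical.

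IFNγ binds a surface receptor built from IFNGR1, which holds the ligand and carries JAK1, and IFNGR2, which carries JAK2. The kinases phosphorylate STAT proteins, which enter the nucleus and activate interferon-response genes. Type I interferons use IFNAR1, which carries TYK2, paired with IFNAR2, which carries JAK1. SOCS1 and SOCS3 are made in response to cytokines and block the kinases, PTPN2 removes phosphate from JAK and STAT proteins, and PIAS1 restrains STAT proteins in the nucleus.

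Total counts per library ran from 9675126 to 11010656. Levels are in CPM, which are counts scaled to 1e6 per library after edgeR trimmed-mean (TMM) correction, and stand as mean ± SD over the 3 libraries of a group. In bulk RNA, fewer cells carrying a transcript and less of it per cell cannot be told apart. Of 8 mesenchymal markers, 7 passed the filter, from VIM at 41547 to 58495 counts per library down to S100A4 at 7 to 21. COL1A1 was at 17 to 99 and THY1 at 2 or fewer, while no epithelial marker exceeded 2 counts. Of the immune markers, CD68 passed the filter at 1217 to 2112 counts per library. The immune markers apart from CD68 summed to 46 counts in RT replicate 2, PTPRC giving 23 of them, and to 12 or fewer in every other library. Of the endothelial markers only KDR passed the filter, at 4 to 14 counts per library, and PECAM1 reached 8.

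IFNγ raised SOCS1 4.62-fold, SOCS3 2.19-fold, JAK2 1.55-fold and PTPN2 1.23-fold, and changed none of the 3 receptor chains by the test used, except that IFNGR1 was called lower when libraries were scaled by their totals. Radiation raised JAK1 and IFNAR1 by 1.20-fold each and lowered PTPN2 to 0.743 of its untreated level. For SOCS3 alone of the 10 genes, edgeR called a different response to IFNγ in irradiated than in unirradiated cells. The rise was smaller under radiation, and that call was lost in DESeq2 and in 7 of 12 fits that left out a library.

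**Figure D1:**
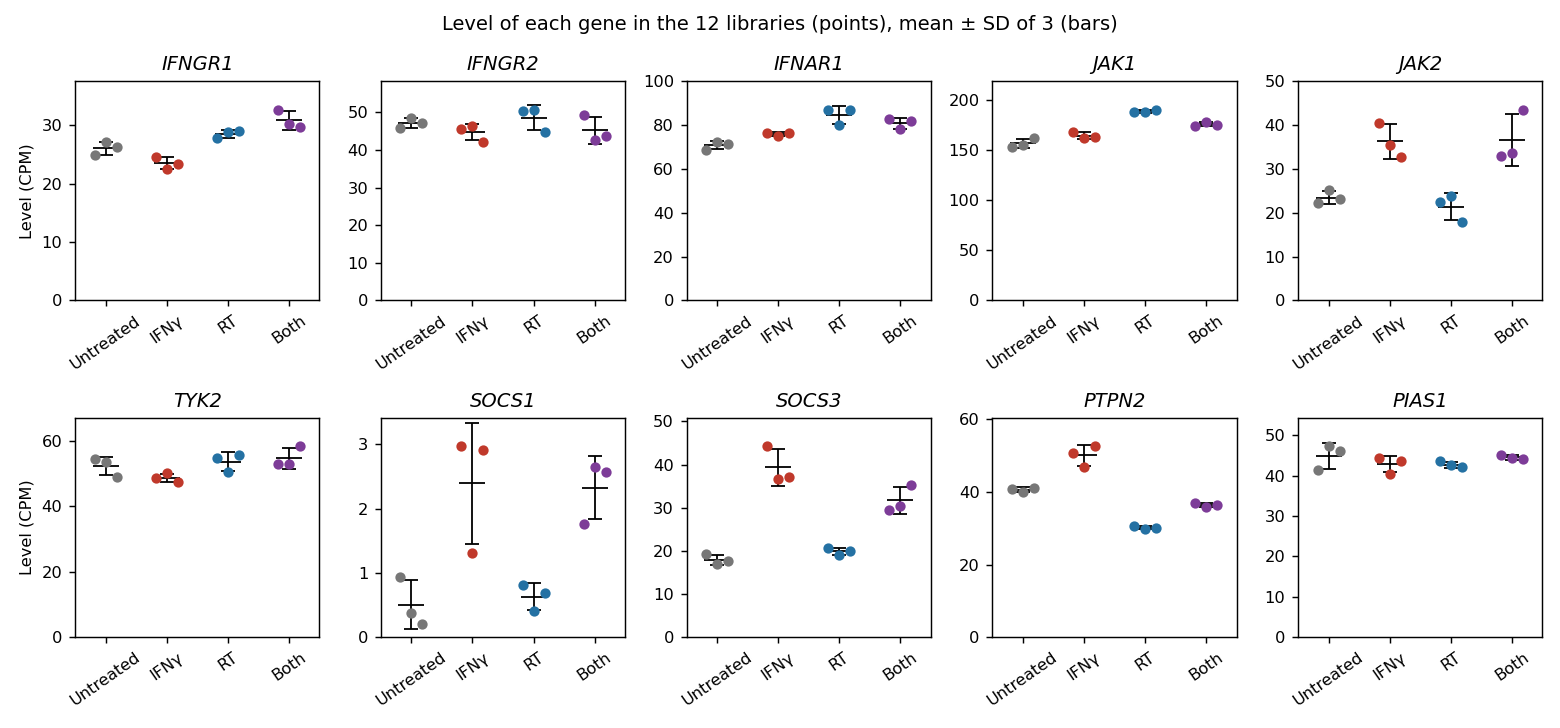
Level of each of the 10 genes in CPM (vertical axes from 0) in untreated, IFNγ-treated, irradiated (RT) and doubly treated (Both) cells; points are libraries and bars the mean ± SD of 3. SOCS1, SOCS3 and JAK2 stood higher in both groups given IFNγ, whereas PTPN2 stood highest with IFNγ alone (50.1 ± 2.98) and lowest with radiation alone (30.2 ± 0.387).

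Levels of different genes were compared only per kilobase of exon. In untreated cells JAK1 was the most abundant of the 10 at 24.8 ± 0.732 CPM per kb (SD, n = 3), followed by IFNGR2 at 15.9 ± 0.455 and IFNAR1 at 11.2 ± 0.29. IFNGR1 at 7.95 ± 0.345 and TYK2 at 7.73 ± 0.418 overlapped in their libraries, so their order is unresolved. SOCS3 followed at 6.56 ± 0.428 and PTPN2 at 4.67 ± 0.0784, each clear of its neighbours. PIAS1 at 4.16 ± 0.292 and JAK2 at 3.80 ± 0.242 CPM per kb overlapped. SOCS1 was last at 0.282 ± 0.214 CPM per kb, and JAK1 stood at 88.1 times that level, or 156 times without untreated replicate 1, which held 10 of the 16 SOCS1 counts.

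The receptor chain that holds IFNγ and its partner were thus unequal on this scale, with IFNGR2 above IFNGR1, and of the 3 kinases the 1 carried by IFNGR2 was the least abundant. After IFNγ alone SOCS3 reached 14.4 ± 1.55 CPM per kb and overlapped IFNGR2 at 15.1 ± 0.745. JAK2 moved above PIAS1 and overlapped PTPN2, at 5.88 ± 0.638 against 5.74 ± 0.342 CPM per kb. SOCS1 stayed last in all 4 groups, at 1.33 ± 0.525 CPM per kb with IFNγ, and JAK1 was then 19.5 times as abundant. SOCS3 was 23.3 times as abundant per kb as SOCS1 in untreated cells (39.2 times without untreated replicate 1), 10.8 times with IFNγ, 20.8 times with radiation and 8.95 times with both. When the longest transcript replaced all exons as the length, 5 of the 10 genes kept their untreated place, and TYK2 at 12.05 and PTPN2 at 11.7 CPM per kb moved up.

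**Figure D2:**
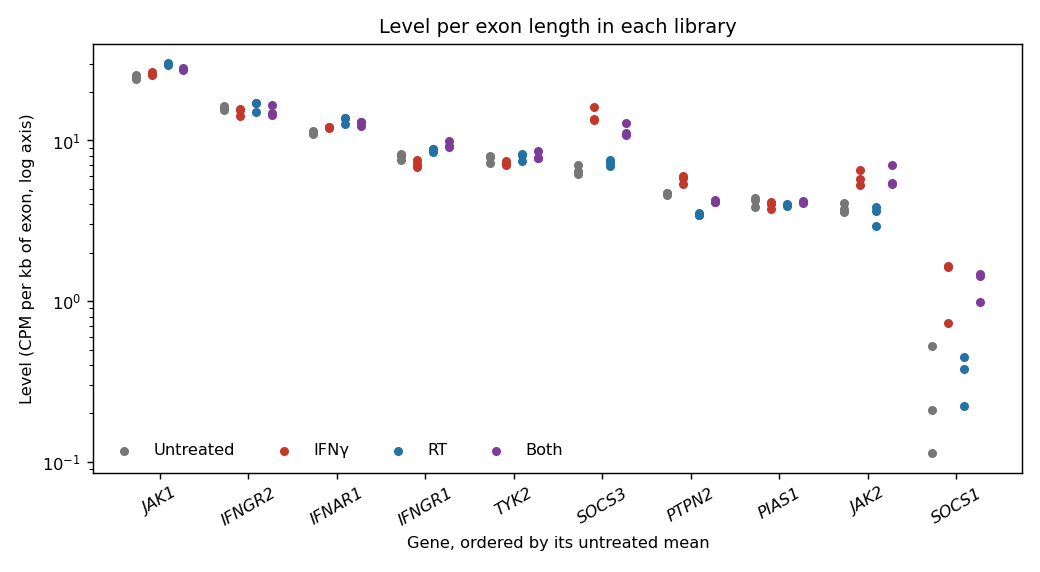
Level per exon length (CPM per kb, log axis) of the 10 genes, ordered by untreated mean, with a point for each library coloured by group. JAK1 leads in every group and SOCS1 is last in every group, from 0.282 CPM per kb in untreated cells to 1.33 with IFNγ, while SOCS3 rises from 6.56 to 14.4.

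The comparison of IFNγ with no treatment addressed the effect of the cytokine in cells that were not irradiated. Of the 10 genes, 4 rose and 0 fell by edgeR's quasi-likelihood test at a Benjamini-Hochberg adjusted p under 0.05. Of all genes tested, 29.1% were called, with 15% of the genes tested higher and 14.1% lower. Higher genes were 51.6% of all calls there, and 31.1% when libraries were scaled by their totals. At an unadjusted p under 0.05, 5 were higher and 0 lower, and the share of all genes at that threshold was not computed. DESeq2 also called 4 higher and 0 lower, and called 2596 of the 12160 genes tested. Libraries of the 2 groups did not overlap for 7 of the 10 genes, against 39.5% of all genes tested. The median log2 fold change of the 10 was 0.08, beside -0.01 over all genes tested.

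The comparison of radiation with no treatment addressed the effect of 20 Gy in the absence of the cytokine. Of the 10 genes 2 rose and 1 fell, where 56.1% of all genes tested were called, 27.9% higher and 28.2% lower. The groups did not overlap for 4 of the 10, against a background of 60.8%. Both treatments against untreated gave 6 higher and 1 lower, against 62.1% of all genes called (30.9% higher and 31.2% lower), and 7 genes with no overlap, against 64.3%. These 3 comparisons share the untreated libraries. The median absolute log2 fold change of the 10 genes was 0.14 after radiation and 0.18 after both treatments, beside 0.23 and 0.26 over all genes tested.

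**Figure D3:**
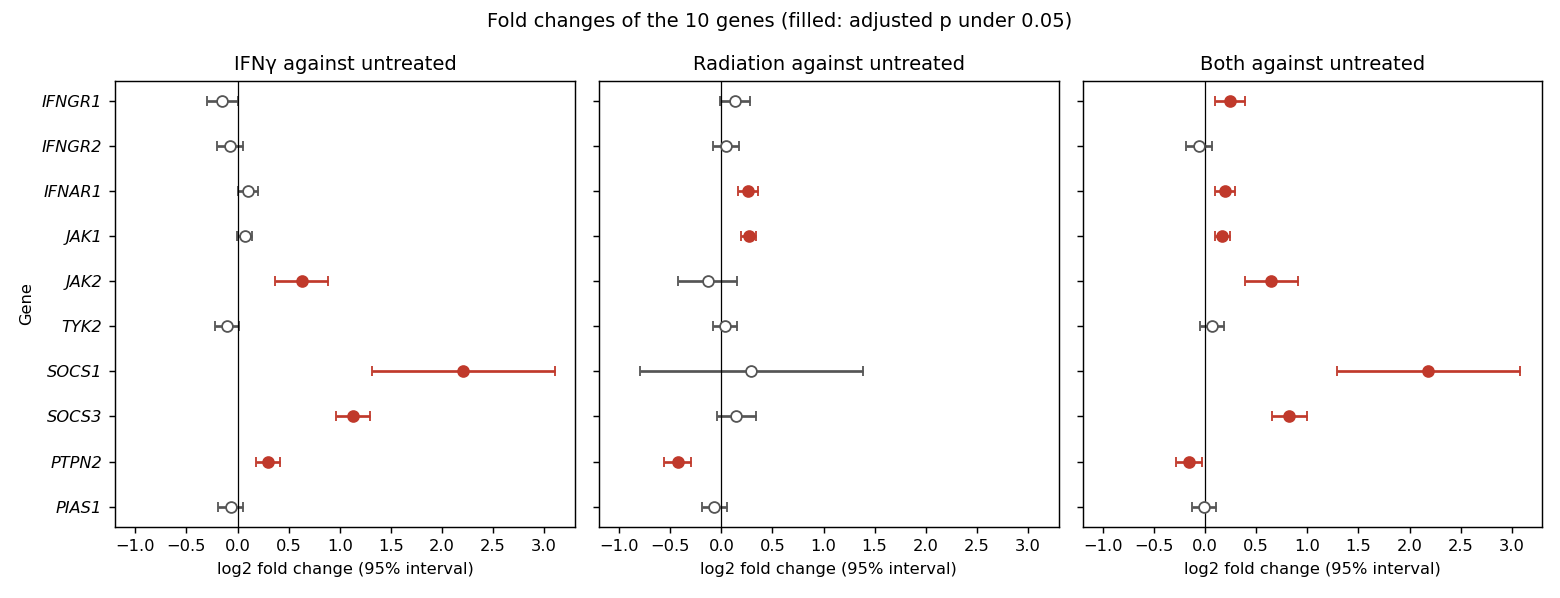
log2 fold change of each gene against untreated cells with its 95% interval, for IFNγ, radiation and both; filled points passed an adjusted p under 0.05. SOCS1 lies furthest from 0 with IFNγ (2.21) and with both (2.18), followed in each by SOCS3 and JAK2, PIAS1 lies within 0.07 of 0 in all 3 panels, and PTPN2 crosses from 0.30 with IFNγ to -0.43 with radiation.

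Among the receptor chains, IFNGR1 (ENSG00000027697.13) showed the widest relative range over the 4 groups. Its level was 24.9, 27.1 and 26.2 CPM in untreated libraries 1 to 3, 24.6, 22.5 and 23.4 with IFNγ, 27.7, 28.8 and 28.96 with radiation, and 32.7, 30.1 and 29.7 with both. The groups ordered as both, radiation, untreated and IFNγ, and no neighbours in that order overlapped. IFNGR1 rose with both treatments against untreated (log2 fold change 0.24 ± 0.0717 SE, adjusted p = 0.00292, edgeR) and against IFNγ alone (0.39 ± 0.0735, adjusted p = 7.13e-06). With IFNγ alone the log2 difference from untreated was -0.15 ± 0.076 (adjusted p = 0.14, edgeR). Scaling by library totals instead of the trimmed mean put that difference at -0.21 and past the threshold, with an edgeR adjusted p of 0.0301.

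IFNGR2 (ENSG00000159128.14), the chain that brings JAK2, changed in none of the 6 comparisons by edgeR. Its group means were 47.1 ± 1.35, 44.7 ± 2.21, 48.6 ± 3.38 and 45.2 ± 3.64 CPM in untreated, IFNγ, irradiated and doubly treated cells, and neighbouring groups overlapped throughout. The 95% interval of its log2 change with IFNγ ran from -0.20 to 0.05. Its exons share 380 bases with TMEM50B on the opposite strand, and the strand setting of the counting is not given in the sources used here.

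IFNAR1 (ENSG00000142166.12), the TYK2-bearing chain for type I interferon, was lowest in untreated cells. It stood at 68.7, 72.1 and 71.5 CPM there, at 76.2, 75.0 and 76.4 with IFNγ, at 87.0, 79.8 and 86.8 with radiation and at 82.6, 77.9 and 81.6 with both. Every treated library exceeded every untreated one. Radiation raised IFNAR1 (log2 fold change 0.26 ± 0.0488, adjusted p = 9.36e-06 by edgeR), as did both treatments (0.19 ± 0.0488, adjusted p = 0.000634), whereas IFNγ alone gave 0.10 ± 0.0495 (adjusted p = 0.125).

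IFNAR1 and IFNGR2 lie next to each other on chromosome 21 (GRCh38, GENCODE 29), at chr21:33324477-33359862 and chr21:33402896-33479348 on the plus strand, in the cluster of cytokine receptor genes that also holds IFNAR2 and IL10RB. IFNAR2, the JAK1-bearing partner of IFNAR1, went from 15.0 ± 0.4 to 31.4 ± 1.3 CPM with IFNγ (log2 fold change 1.06 ± 0.0816, adjusted p = 4.81e-17, edgeR). IL10RB, the shared chain of the IL-10 and lambda interferon receptors, went from 19.3 ± 0.831 to 26.9 ± 0.539 (0.48 ± 0.0797, adjusted p = 1.77e-06). Thus, of these 4 clustered genes, the 2 outside the set of 10 rose with IFNγ, while IFNAR1 and IFNGR2 differed from untreated by 0.10 and -0.07 log2 units and did not pass the test.

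JAK1 (ENSG00000162434.11), which serves both receptor types, was measured with narrow spread. Its level was 153, 155 and 162 CPM in untreated libraries, 168, 162 and 163 with IFNγ, 188, 188 and 190 with radiation and 174, 178 and 176 with both. The groups ordered as radiation, both, IFNγ and untreated, with no overlap between neighbours. Radiation raised JAK1 by 0.27 ± 0.0369 log2 units (edgeR adjusted p = 1.01e-08) and both treatments raised it by 0.17 ± 0.0369 (adjusted p = 9.48e-05). IFNγ alone gave 0.07 ± 0.0373 (edgeR adjusted p = 0.164).

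JAK1 with both treatments was lower than with radiation alone, by a log2 difference of -0.10 ± 0.0363 (adjusted p = 0.0313, edgeR). That call was lost in DESeq2 (adjusted p = 0.0686), without the filter on low counts (edgeR adjusted p = 0.0760), and in edgeR fits without any 1 of the 6 libraries compared (adjusted p up to 0.106). Its excess with both over IFNγ alone, 0.10 ± 0.0368 (edgeR adjusted p = 0.0193), was lost without the filter (adjusted p = 0.0669) and without IFNγ replicate 2 (0.0789), IFNγ replicate 3 (0.0572) or doubly treated replicate 2 (0.0698).

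JAK2 (ENSG00000096968.13), the kinase carried by IFNGR2, was the only 1 of the 3 kinases that rose with IFNγ. It stood at 22.2, 25.1 and 23.0 CPM in untreated cells, 40.6, 35.5 and 32.8 with IFNγ, 22.4, 23.9 and 17.98 with radiation and 32.9, 33.7 and 43.5 with both. All 6 libraries given IFNγ exceeded all 6 not given it. The rise was 1.55-fold without radiation (95% interval 1.29 to 1.85, adjusted p = 0.000804, edgeR) and 1.72-fold in irradiated cells (1.43 to 2.07, adjusted p = 0.000132). Radiation alone left JAK2 at a log2 difference of -0.13 ± 0.135 from untreated, with a 95% interval from -0.42 to 0.15.

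TYK2 (ENSG00000105397.13), the partner kinase of IFNAR1, had group means of 52.4 ± 2.83, 48.8 ± 1.29, 53.7 ± 2.87 and 54.8 ± 3.16 CPM in untreated, IFNγ, irradiated and doubly treated cells. Neighbouring groups overlapped in every case. It was higher with both treatments than with IFNγ alone by 0.17 ± 0.0585 log2 units (adjusted p = 0.0117, edgeR). Without doubly treated replicate 3, at 58.4 CPM the highest TYK2 library, the difference was 0.12 and the edgeR adjusted p was 0.120. With scaling by library totals, TYK2 was also called lower with IFNγ than in untreated cells (log2 difference -0.16, edgeR adjusted p = 0.0299).

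SOCS1 (ENSG00000185338.4), the inhibitor that binds and blocks JAK kinases, showed the largest fold change of the 10 genes from the lowest level. The gene lies on the minus strand of chromosome 16, at chr16:11254405-11256200 (GRCh38, GENCODE 29). The 250 bases before its annotated start are shown because 1 of the 19 RefSeq promoter windows of the 10 genes held the core of an interferon-stimulated response element, and it was this window. The sequence is chr16:11256205-11256454 of RefSeq on GRCh38.p14, minus strand, 5′ to 3′, with the match GAAAGAGAAA in capitals.
SOCS1 upstream: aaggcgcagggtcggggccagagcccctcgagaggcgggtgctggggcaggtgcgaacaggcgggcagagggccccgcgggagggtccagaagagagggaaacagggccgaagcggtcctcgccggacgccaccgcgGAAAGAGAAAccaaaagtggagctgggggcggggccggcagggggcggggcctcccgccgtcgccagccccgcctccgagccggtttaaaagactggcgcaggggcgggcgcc
The match begins 113 bases before the start. Windows ran from 250 bases before to 50 after a start, and both strands were searched for the core, GAAA and GAAA parted by any 2 bases, and for TTCNNNGAA, the gamma-activated site bound by STAT dimers. The core was present in 3.57% of 35116 windows of this length, and the gamma-activated site in 7.66% of them and in 0 of the 19 windows of the 10 genes. The windows follow RefSeq starts and do not all hold the GENCODE 29 start of their gene. Those of SOCS3, chr17:78360876-78361175 and chr17:78359618-78359917, do not hold its GENCODE start at 78360077. The 1 window of PTPN2, chr18:12840913-12841212, does not hold its GENCODE start at 12929643. The 1 window of IFNGR2, chr21:33403163-33403462, does not hold its GENCODE start at 33402896. Those of IFNAR1, chr21:33324145-33324444 and chr21:33324720-33325019, do not hold its GENCODE start at 33324477. The bases at these starts were therefore not searched. A match describes letters in this window, and the absence of one says nothing about whether a factor binds elsewhere.

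SOCS1 had 10, 4 and 2 counts in the untreated libraries, 30, 14 and 29 with IFNγ, 8, 4 and 7 with radiation and 18, 28 and 28 with both. These sums were 16 counts in untreated cells (95% exact Poisson interval 9.15 to 26.0), 73 with IFNγ (57.2 to 91.8), 19 with radiation (11.4 to 29.7) and 74 with both (58.1 to 92.9), where intervals cover counting error only. In CPM the libraries given IFNγ ran from 1.31 to 2.97 and those without it from 0.203 to 0.938, with no overlap.

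The IFNγ effect on SOCS1 was 4.62-fold without radiation (95% interval 2.48 to 8.60, adjusted p = 1.05e-05, edgeR) and 3.71-fold in irradiated cells (2.08 to 6.62, adjusted p = 8.18e-05). Its size depended on the sparse untreated libraries: without untreated replicate 1, which held 10 of the 16 counts, the log2 fold change was 3.02 rather than 2.21, and that of both treatments 2.99 rather than 2.18. Radiation alone gave a SOCS1 log2 difference of 0.29 ± 0.544, with a 95% interval from -0.80 to 1.39, so a change of that size was not detectable at this depth.

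SOCS3 (ENSG00000184557.4), best known for blocking JAK kinases at receptors that contain IL6ST, was the most precisely measured of the genes that rose strongly. It stood at 19.2, 16.9 and 17.7 CPM in untreated cells, 44.2, 36.6 and 37.2 with IFNγ, 20.6, 19.1 and 20.0 with radiation and 29.4, 30.4 and 35.3 with both. Libraries given both treatments lay above all untreated and irradiated ones and below all given IFNγ alone. IFNγ raised SOCS3 2.19-fold without radiation (95% interval 1.95 to 2.46, adjusted p = 2.66e-17, edgeR) and 1.60-fold in irradiated cells (1.42 to 1.80, adjusted p = 2.57e-09). Radiation alone gave a log2 difference of 0.15 ± 0.0945 (adjusted p = 0.181, edgeR).

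PTPN2 (ENSG00000175354.18), the phosphatase that acts on JAK and STAT proteins, moved in opposite directions with the 2 treatments. It stood at 40.9, 39.9 and 41.2 CPM in untreated cells, 50.8, 46.8 and 52.6 with IFNγ, 30.6, 29.9 and 30.03 with radiation and 37.0, 36.0 and 36.3 with both. The groups ordered as IFNγ, untreated, both and radiation, with no overlap between neighbours. IFNγ raised PTPN2 by 0.30 ± 0.0593 log2 units in unirradiated cells (edgeR adjusted p = 5.64e-05) and by 0.27 ± 0.0667 in irradiated cells (adjusted p = 0.00125). Radiation lowered it, with log2 fold changes of -0.43 ± 0.0657 without IFNγ (adjusted p = 1.2e-07, edgeR) and -0.46 ± 0.0605 with it (adjusted p = 2.81e-09). Leaving out any 1 library, RT replicate 2 with its immune transcripts included, kept the first of these between -0.44 and -0.42.

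With both treatments PTPN2 stood below untreated by a log2 difference of -0.16 ± 0.0625 (adjusted p = 0.0236, edgeR). That call was lost in DESeq2 (adjusted p = 0.0926) and in edgeR fits without untreated replicate 3 (0.0608), doubly treated replicate 2 (0.0647) or doubly treated replicate 3 (0.0526).

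PIAS1 (ENSG00000033800.13), the nuclear inhibitor of STAT proteins, changed in none of the 6 comparisons by edgeR. Group means were 44.8 ± 3.15 CPM in untreated cells, 42.8 ± 2.01 with IFNγ, 42.7 ± 0.743 with radiation and 44.5 ± 0.569 with both. Ranked by its spread over the 12 libraries, PIAS1 was at percentile 3.73 of all genes tested, TYK2 at 11.8 and IFNGR2 at 11.97. SOCS3 was at percentile 88.9 and SOCS1, with its low counts, at 97.9. PIAS1 exons share 3260 bases with CALML4 on the opposite strand, so its reads and those of CALML4 may not have been separated.

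Within irradiated cells, addition of IFNγ raised 4 of the 10 genes and lowered 1, where 26.9% of all genes tested were called, 14.5% higher and 12.4% lower. Higher genes were 53.9% of those calls, and 38.0% with scaling by library totals. The 4 were SOCS1, SOCS3, JAK2 and PTPN2. DESeq2 called the same number higher and 0 lower, and called 2395 of the 12160 genes tested. Libraries did not overlap for 7 of the 10 genes, against a background of 40.3%. Within IFNγ-treated cells, radiation raised 3, namely IFNGR1, JAK1 and TYK2, and lowered SOCS3 and PTPN2, where 60.7% of all genes tested were called, 30.3% higher and 30.4% lower. Libraries did not overlap for 6 of the 10 in that comparison, against 64.2%. SOCS3 fell by 0.31 ± 0.0729 log2 units there (adjusted p = 0.000254, edgeR), which is 0.808 of its level with IFNγ alone.

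The interaction tests whether IFNγ changed a gene by another log2 amount after radiation than without it, and 2.38% of all genes tested were called for it, 1.38% higher and 0.995% lower. Higher genes were 58.1% of those calls, and 69.4% with scaling by library totals. Among the 10 genes only SOCS3 was called, with -0.46 ± 0.119 (95% interval -0.70 to -0.22, adjusted p = 0.0240, edgeR). At an unadjusted p under 0.05, edgeR gave 1 gene higher and 3 lower. The share of all genes at that unadjusted threshold was not computed, so the 2.38% is no background for it. The SOCS3 difference kept its sign and a value from -0.54 to -0.35 when single libraries were left out. It was nevertheless past the threshold in only some fits: DESeq2 gave an adjusted p of 0.0873 and called 0 of the 10. In edgeR, the call was lost on leaving out untreated replicate 2 (adjusted p = 0.0623) or 3 (0.0538), replicate 1 of IFNγ (0.128), RT replicate 1 (0.0772) or 3 (0.0568), or doubly treated replicate 1 (0.0649) or 2 (0.0724).

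JAK1 gave an interaction of -0.17 ± 0.0521 (adjusted p = 0.0675, edgeR), IFNGR1 0.26 ± 0.104 (0.199) and IFNAR1 -0.17 ± 0.0687 (0.221), none of which passed. For SOCS1 the value was -0.32 ± 0.61, with a 95% interval from -1.54 to 0.91, which leaves large differences in either direction unresolved. For PTPN2 the interval was narrow, from -0.21 to 0.15 around -0.03. For JAK2 it ran from -0.22 to 0.53.

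**Figure D4:**
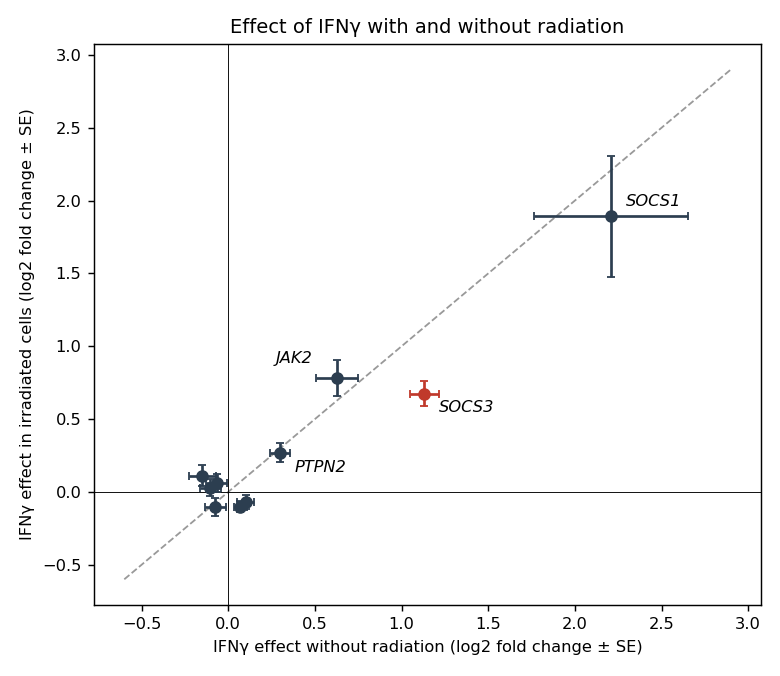
log2 effect of IFNγ on each of the 10 genes without radiation (horizontal axis) and in irradiated cells (vertical axis), ± SE; the dashed line marks equal effects. SOCS3, in red, lies below the line at 1.13 and 0.67, while PTPN2 lies on it at 0.30 and 0.27 and SOCS1 has wide errors.

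The other genes of the pathway were followed in 4 lists, whose edgeR counts stand against 29.1% of all genes tested called with IFNγ and 56.1% with radiation. DESeq2 called 2596 and 5868 of the 12160 genes tested in these 2 comparisons. Of 8 STATs and partner factors, 7 were tested, and with IFNγ 5 rose and 0 fell by edgeR, with no further gene at an unadjusted p under 0.05 and the same counts by DESeq2. IRF1, an early transcription factor of the response, rose by 4.81 ± 0.244 log2 units, IRF9, the DNA-binding partner of STAT2, by 3.02 ± 0.101, STAT2 by 2.49 ± 0.0736 and STAT3 by 1.11 ± 0.0454. The median log2 change of the 7 was 1.11. With radiation 3 of the 7 rose and 1 fell, a share near the 56.1% of all genes tested. STAT3, the main transducer of IL-6 family cytokines, rose by 0.95 ± 0.0459 and STAT5B gave -0.35 ± 0.0606.

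In the interaction, 2 of the 7 STATs and partners were called lower and 0 higher by edgeR, and DESeq2 gave the same counts of calls. At an unadjusted p under 0.05, edgeR gave 3 lower and 0 higher, and the share of all genes at that threshold was not computed. At an adjusted p under 0.05, edgeR called 2.38% of all genes tested for the interaction, 0.995% lower and 1.38% higher. DESeq2 called 159 genes for it. The 2 called were IRF9 at -0.89 ± 0.133 (adjusted p = 7.38e-06, edgeR) and STAT3 at -0.48 ± 0.0606 (adjusted p = 3.25e-07). STAT3 went from 89.3 ± 5.52 CPM in untreated cells to 193 ± 11.1 with IFNγ, 172 ± 3.29 with radiation and 267 ± 12.1 with both. SOCS3 and STAT3 therefore both had a negative interaction, but SOCS3 fell from IFNγ alone to both treatments whereas STAT3 rose, by 0.47 ± 0.0395 log2 units (adjusted p = 5.88e-15, edgeR).

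Of 8 other receptor chains, 7 were tested, and with IFNγ 4 rose and 2 fell by edgeR, and 4 rose and 1 fell by DESeq2. Besides IFNAR2 and IL10RB, IL6R, the IL-6 binding chain, fell by 0.49 ± 0.149 log2 units and LIFR, which binds LIF, by 0.35 ± 0.1. With radiation 3 rose and 1 fell (3 and 0 by DESeq2), again near the 56.1% called among all genes, led by IL11RA at 0.82 ± 0.195 and IL10RB at 0.52 ± 0.0797, with IL6R at -0.44 ± 0.148. IL10RB reached 38.6 ± 2.85 CPM with both treatments, 1.00 log2 unit above untreated. IL6ST, the signalling chain shared by the IL-6 family, was the only receptor chain of the 7 with a called interaction (-0.22 ± 0.0516, adjusted p = 0.0102, edgeR). Over all genes tested, 2.38% had one.

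Of 8 ligands, 4 were tested. IL6 went from 1.12 ± 0.0923 CPM in untreated cells to 2.63 ± 0.276 with IFNγ, 3.27 ± 0.873 with radiation and 5.86 ± 0.592 with both, and was called higher in each (log2 fold changes 1.23, 1.55 and 2.38, edgeR). It was the only ligand of the 4 called with IFNγ, while with radiation LIF (0.47 ± 0.0517) and IFNE (0.78 ± 0.306) were called as well, where DESeq2 called 2 of the 4. The genes for IFNγ itself and for IFNB1, IFNL1 and OSM were at or near 0 counts and were not tested.

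Among 16 other kinases and negative regulators, 12 were tested, and with IFNγ 3 rose and 5 fell by edgeR, and 2 rose and 5 fell by DESeq2. USP18, which blocks type I interferon signalling at IFNAR2, rose by 2.66 ± 0.215 log2 units. SOCS2 gave -1.19 ± 0.22, SOCS5 -0.46 ± 0.0536 and SOCS7 -0.34 ± 0.0852, all called lower by edgeR. SOCS6 was called higher at 0.16 ± 0.0588, and SOCS4, at -0.08 ± 0.0542, did not pass. Of the SOCS family, 3 of the 7 tested genes were thus called higher with IFNγ by edgeR (SOCS1, SOCS3 and SOCS6) and 3 lower, and CISH was not tested. SOCS4 and SOCS6 are named here to complete the family, after their values were seen. With radiation 1 of the 12 rose, SOCS4 at 0.40 ± 0.0517, and 4 fell by edgeR but 2 by DESeq2, a smaller share than the 56.1% called among all genes. SH2B3, an adaptor that restrains JAK2, fell furthest, at -0.36 ± 0.0377. JAK3, the kinase of blood cells, and the phosphatases PTPN6 and PTPRC of those cells were not tested.

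**Figure D5:**
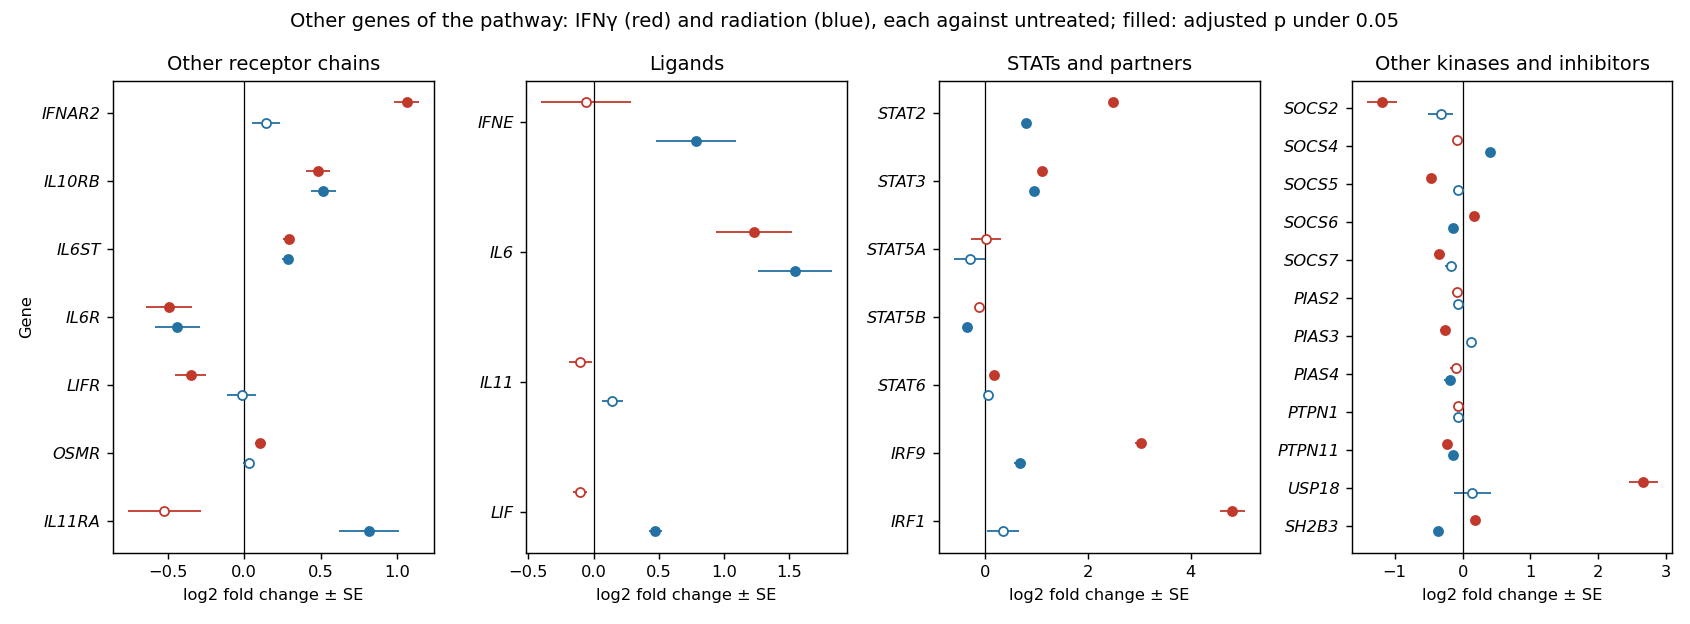
log2 fold change ± SE (horizontal axes, each panel with its own scale) against untreated for tested genes of 4 lists, IFNγ in red and radiation in blue, with filled points past an adjusted p under 0.05. IFNAR2 at 1.06, IRF1 at 4.81 and USP18 at 2.66 lead their panels with IFNγ, whereas SOCS2 lies at -1.19.

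Genes whose pattern over the 12 libraries was most like a member's were found by the root mean square difference of log2 CPM, each gene centred on its own mean. For SOCS3 they were CD47, the surface ligand read by phagocytes as a signal not to engulf (0.118), PARP8 (0.118) and TRIM26 (0.127). CD47 went from 111 CPM in untreated cells to 237 with IFNγ, 109 with radiation and 200 with both. For JAK2 they were CEP162 (0.122), SSBP4 (0.131) and LMF2 (0.132), and for SOCS1 they were TRIM21 (0.420), IFITM3 (0.423) and HELZ2 (0.425), at larger distances. SOCS1 itself varied more about its mean (root mean square 1.01) than SOCS3 (0.472) or JAK2 (0.380), so the distances are not comparable between the 3 genes. These are descriptions over libraries that share treatments, with no test.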

How the data were processed

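RNA sequencing of 12 HT1080 libraries was analysed from 1 table of raw counts per gene deposited by the authors, with no normalization. The tools listed in the submitters' processing notes are TopHat2 2.0.13, Cuffdiff 2.2.1, Cufflinks and FastQC 0.11.3, and the build is hg19 (GRCh37). Which tool counted the reads, with which strand setting and annotation, is not given in the sources used here. Per the labels' protocols ribosomal RNA was removed for stranded total RNA libraries, while the series' design text names an mRNA protocol. The header names of the first 4 columns are shifted and were read by content, and 0 count columns were unmatched.

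Counts were filtered with filterByExpr (genes left out held 0.0678% of counts), scaled by TMM and fitted with edgeR 4.0.16 in R 4.3.3, all 12 libraries in a single quasi-likelihood fit with robust dispersions. The common biological coefficient of variation was 2.71%. P-values were adjusted by Benjamini-Hochberg over 12160 genes, with calls made at adjusted p under 0.05. Standard errors are Wald errors of that fit with counting error as a floor, and the script was tested on simulated data. Lengths are summed GENCODE 29 exons, with a length for 99.9% of identifiers.

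Alternatives were DESeq2 1.42.0, library totals, RLE factors, no filter, a filter of 50 counts in 3 libraries, only the groups compared, a replicate block, and leaving out each library, which for ratios to SOCS1 was added after the data were seen. Of the pathway lists at most the 4 called genes of largest change per comparison are named, and for SOCS1, SOCS3 and JAK2 the 3 most alike genes. A gene of these lists is not reported here and is left out of their counts. The 10 genes and the lists were chosen with earlier results of these data known.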

Additional observations from a re-analysis of the deposited data

Results flagged for a closer look

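IFNγ changed 4 named genes by another log2 amount in irradiated than in unirradiated cells, by the interaction term of edgeR's quasi-likelihood fit, namely SOCS3 (-0.46, adjusted p = 0.0240) and 3 genes of the pathway lists. These were IRF9 (-0.89, adjusted p = 7.38e-06), STAT3 (-0.48, adjusted p = 3.25e-07) and IL6ST (-0.22, adjusted p = 0.0102). All 4 had the smaller IFNγ effect in irradiated cells. They were 1 of the 10 genes, 1 of the 7 other receptor chains tested and 2 of the 7 STATs and partners tested. Of the 4 ligands and 12 other kinases and negative regulators tested, 0 were called. Over all genes tested, edgeR called 2.38% for this term, 0.995% lower and 1.38% higher. SOCS3 rose from 17.9 ± 1.17 to 39.3 ± 4.23 CPM with IFNγ in unirradiated cells and from 19.9 ± 0.751 to 31.7 ± 3.13 CPM in irradiated ones (SD, n = 3). IFNγ replicate 1 was the highest SOCS3 library at 44.2 CPM, and without it the SOCS3 term was -0.35 with an edgeR adjusted p of 0.128. Groups of 3 were not tested for outlying libraries.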

How the results depend on the processing

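Over 6 comparisons of the 10 genes, no call reversed under any alternative run. With DESeq2, 57 of 60 results kept their side of the threshold and 3 lost it, and with no filter 58 did and 2 lost it. With library totals 57 did and 3 gained it, and with the filter of 50 counts, which removed SOCS1, 53 did and 1 gained it (IFNAR1, both against IFNγ, 0.11). Of results with a library left out, 400 kept their side and 20 lost it. RLE factors, fits of only the groups compared and the replicate block moved none. The interaction count of 1 of the 10 genes went to 0 in DESeq2. Leaving out a library gave 4 called for IFNγ against untreated, 3 for radiation, 6 to 7 for both, 4 for both against radiation (5 with all libraries), 4 to 5 for both against IFNγ and 0 to 1 for the interaction. The order per kb kept 5 of 10 places with longest transcripts. Over all genes, 289 interaction calls became 159 in DESeq2, 161 without RT replicate 2 and 179 without doubly treated replicate 2. Same-numbered libraries did not deviate together (correlations -0.13 to 0.23 over 18 pairs, 3 above 0.1, and 4 of 12 libraries closest to their own number), and with the replicate block the members called stayed at 4, 3, 7, 5, 5 and 1. The causes were not tested. SOCS1, at 2 to 30 counts per library, limits what can be said of its fold sizes.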
